A study of Mus musculus with 6 samples.

Results

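The genes described here are 8 that are used as markers of podocytes: Nphs1, Podxl, Synpo, Ptpro, Clic5, Magi2, Foxc2 and Tcf21. They were taken by symbol, and all 8 were found among the 25157 genes with normalized counts in a table of 52386 genes. They were measured in nephron progenitor cells sorted as GFP-positive from mouse kidneys at E18.5. CD-1 females had been mated with Six2 Cre tg/+ males, and every library is labelled CD-1/ Six2 Cre tg/+, so the transgene is shared by both diets. The tested diet was food restriction throughout pregnancy (3 libraries), and the control diet gave the other 3 libraries. The sample labels put the restricted diet at 30% of the daily calories and the series text at 70%, and the sources used here do not settle it. The labels do not say which litters or how many embryos went into a library. The p-values therefore reflect only how far these libraries varied, and that variation may be technical. The Six2 promoter drives the transgene, and the sort kept cells by their GFP.

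Podocytes are the epithelial cells that wrap the glomerular capillaries. Their interlocking foot processes are joined by the slit diaphragm, a junction built around nephrin that filters plasma. They descend from Six2-expressing progenitors by way of the renal vesicle and the S-shaped body, and mature markers such as nephrin switch on late along that path, while several of their transcription factors are already present in earlier mesenchyme. A cell sort on a progenitor reporter therefore asks which podocyte genes are already transcribed, and the diet comparison asks how their levels differed with maternal food restriction.

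The start regions of the least and the most abundant of the 6 structural members are shown because the levels below run between these genes. Each sequence is the 250 bases before the RefSeq transcription start (GRCm38.p6), 5′ to 3′ on the + strand, and 5 of the 8 members matched an entry of that promoter table. Capitals mark matches to the E-box CANNTG, the motif class of basic helix-loop-helix factors such as Tcf21. The E-box reads the same on both strands.
Nphs1 (chr7:30459808-30460057): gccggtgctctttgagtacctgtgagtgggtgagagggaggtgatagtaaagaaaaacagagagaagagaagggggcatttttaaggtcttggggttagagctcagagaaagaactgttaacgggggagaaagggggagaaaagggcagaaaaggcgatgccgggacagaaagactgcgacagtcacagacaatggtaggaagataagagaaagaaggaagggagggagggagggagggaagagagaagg
Ptpro (chr6:137252049-137252298): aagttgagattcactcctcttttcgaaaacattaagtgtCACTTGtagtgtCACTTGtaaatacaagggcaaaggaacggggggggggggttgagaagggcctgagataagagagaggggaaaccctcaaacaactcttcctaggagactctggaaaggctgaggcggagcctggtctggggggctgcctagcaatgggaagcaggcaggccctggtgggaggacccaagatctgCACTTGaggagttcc
The Ptpro window held 3 E-boxes, all reading CACTTG, beginning 211, 199 and 15 bases before the start, and the Nphs1 window held none. The RefSeq start of Nphs1 lies inside the gene interval of the authors' table. Of 32841 promoter windows of this length, 66.2% held at least 1 E-box, so a match is common. Neither window held GTAAACA, a forkhead motif searched on both strands that was present in 3.17% of windows. These matches describe letters in a window and no binding was measured.

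The 6 libraries held between 6515127 and 16763479 counts, and food-restricted replicate 1 was the shallowest. Markers of the sorted cell type were abundant. Sall1, a progenitor transcription factor, stood at 9495 ± 422 normalized counts in food-restricted libraries and 9734 ± 180.4 in controls (SD, n = 3 each), and Six2 lay between 157 and 182 reads per kilobase of exon, scaled by total counts (RPKM) over the 6 libraries. Normalized counts are the authors' counts divided by a size factor per library, and RPKM was computed from the counts and GENCODE exon lengths to set genes of different length side by side.

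The podocyte genes covered a wide range of levels in these cells, from abundant transcription factors to nephrin near the limit of detection. Per kilobase, Foxc2 was the most abundant of the 8 at 20.8 ± 3.00 RPKM in food-restricted libraries and 15.9 ± 0.476 RPKM in controls, a mean level above that of 90.9% of all tested genes. Tcf21 followed at 11.1 ± 1.46 RPKM in food-restricted libraries and 11.3 ± 0.115 RPKM in controls, above 83.8% of tested genes. Ptpro stood at 2.86 ± 0.197 and 2.28 ± 0.179 RPKM in food-restricted and control libraries, the highest of the structural genes. These first steps of the order did not overlap over the 6 libraries: Foxc2 ranged from 15.4 to 23.2, Tcf21 from 9.47 to 12.2 and Ptpro from 2.1 to 3.04 RPKM.

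Below them lay 4 structural genes, ordered here by their mean over both diets. Neighbours in this order overlapped in range, while every library of Magi2, the highest, lay above every library of Synpo, the lowest. In controls alone Podxl had the highest mean of the 4, at 0.850 RPKM against 0.816 for Magi2. Magi2 ranged from 0.729 to 1.05 RPKM, Clic5 from 0.559 to 0.890, Podxl from 0.364 to 1.04 and Synpo from 0.322 to 0.694. Nphs1 was lowest, from 0 to 0.283 RPKM, and 11.8% of tested genes were lower.

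**Figure D1:**
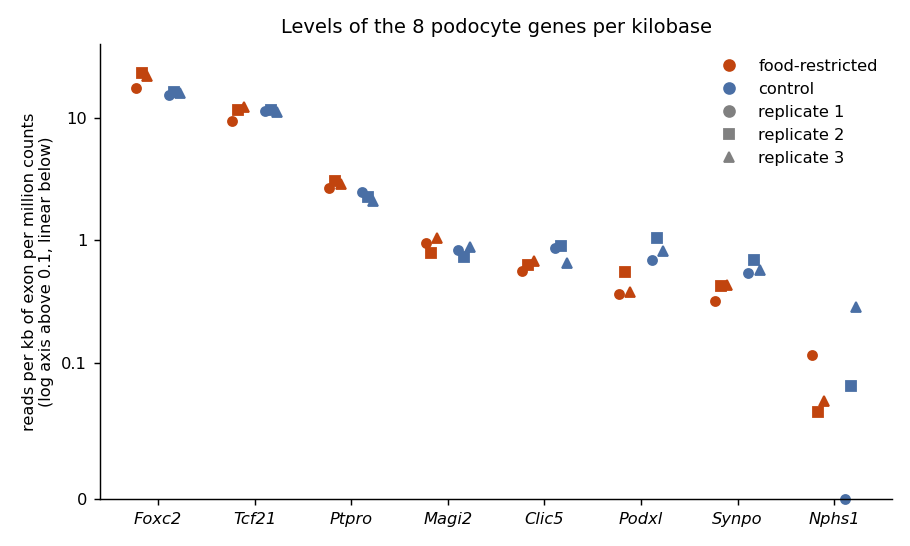
Level of each of the 8 podocyte genes in each library, in RPKM (log axis above 0.1, linear below). Points are single libraries, with colours for the diet and shapes for the replicate. Foxc2 and Tcf21 lie above 9 RPKM in every library, Ptpro lies between 2.1 and 3.04, and Nphs1 reaches 0 in a control library.

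Across the diets, 1 of the 8 genes rose and 1 fell. Foxc2 was higher and Podxl lower in food-restricted libraries at a limma Benjamini-Hochberg adjusted p under 0.05 over all 25157 genes. Over all tested genes 4.74% were called, 2.24% higher and 2.5% lower, so 1 call in each direction among 8 genes is a small count to set against that background. The median log2 fold change was 0.036 over the 8 genes and -0.0028 over all tested genes. For 4 of the 8 genes the food-restricted libraries lay wholly to 1 side of the controls, above them for Foxc2 and Ptpro and below them for Podxl and Synpo, where 19.7% of all tested genes did not overlap, 9.48% higher and 10.2% lower. In bulk libraries, fewer cells of a type and less RNA per cell cannot be told apart, which holds for every value below. The fit had no term besides diet, so differences in litter or cell mix between the diets cannot be told apart from it.

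**Figure D2:**
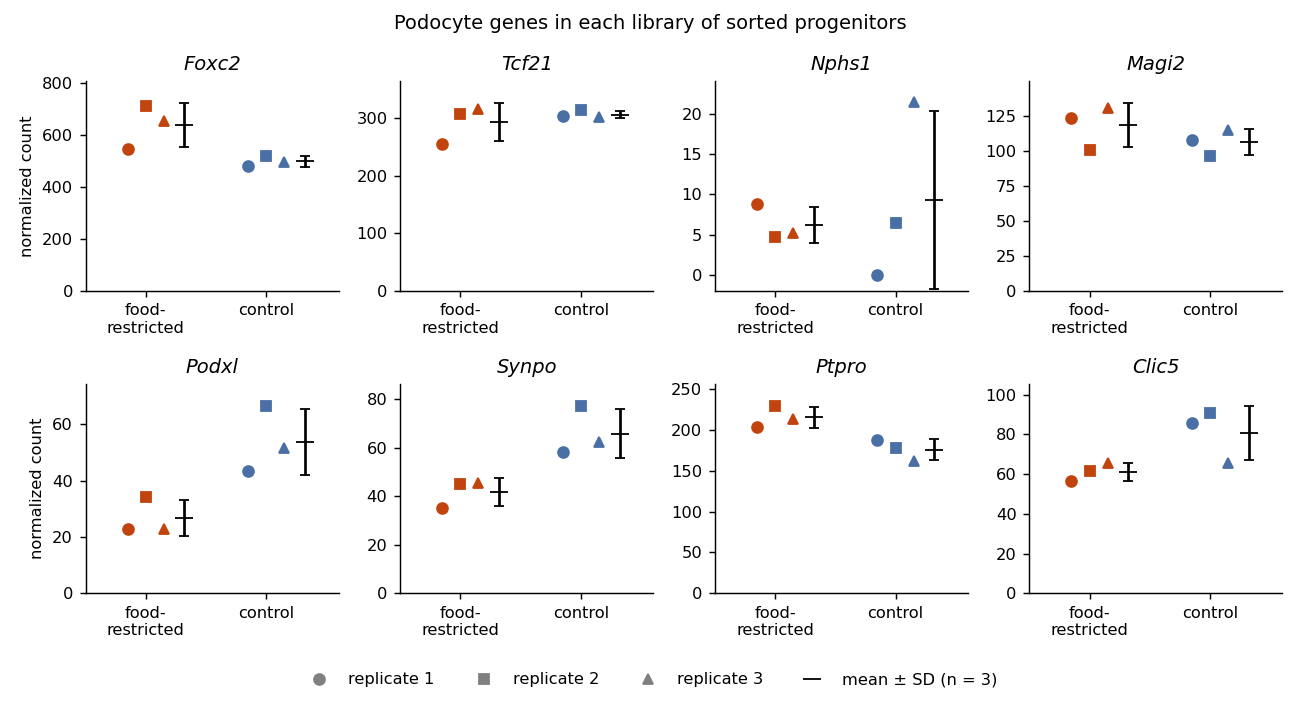
Normalized count of each podocyte gene in each library, with separate linear axes. Points are libraries (shape gives the replicate), and bars give the mean ± SD of the 3 libraries of a diet. The diets do not overlap for Foxc2, Ptpro, Podxl and Synpo, and they overlap for Tcf21, Nphs1, Magi2 and Clic5.

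The transcription factors came out differently from each other. Foxc2 (ENSMUSG00000046714, GRCm38 chromosome 8, 121116171 to 121118895, + strand, a single exon) is a forkhead factor needed for podocyte differentiation that is also made in other mesenchyme. It had 546, 710 and 653 normalized counts in food-restricted replicates 1 to 3, against 478, 519 and 495 in control replicates 1 to 3. Every food-restricted library lay above every control library, with replicate 1 closest to the controls. Foxc2 averaged 636 ± 83.3 in food-restricted libraries and 497 ± 20.9 in controls (SD, n = 3 each), which is 1.28-fold (log2 fold change 0.35, SE 0.085, 95% interval 0.18 to 0.52, limma adjusted p = 0.00579). In the authors' deposited table its log2 fold change was 0.37 with an adjusted p of 0.0120, in a comparison that called 3.18% of the same genes.

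Libraries of the same diet differed in Foxc2 by more than counting error gives, with the larger SD in the food-restricted libraries. The within-diet chi-square per degree of freedom was taken over both diets together and is 1 for counting error alone. It was 4.46 for Foxc2, beside a median of 2.03 over genes with mean normalized counts between 20 and 1000. The call ended without control replicate 1 (log2 fold change 0.32, limma adjusted p = 0.0738), without food-restricted replicate 2 (0.26, limma adjusted p = 0.152) and without food-restricted replicate 3 (0.32, limma adjusted p = 0.0754). Without the shallow food-restricted replicate 1 the log2 fold change was 0.45 (limma adjusted p = 0.000281).

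Tcf21 (ENSMUSG00000045680, chromosome 10, 22817281 to 22820174, − strand) is a basic helix-loop-helix factor of podocytes and of renal stroma. It had 255, 307 and 316 normalized counts in food-restricted replicates 1 to 3, against 303, 314 and 302 in control replicates 1 to 3. The diets overlapped, and food-restricted replicate 1 was the lowest of the 6 libraries. The log2 fold change was -0.071 (95% interval -0.28 to 0.14, limma adjusted p = 0.823). It was 0.024 without food-restricted replicate 1. Gm10824, an antisense gene whose exons do not overlap those of Tcf21, had 20, 36 and 36 reads in food-restricted replicates 1 to 3, against 31, 39 and 30 reads in control replicates 1 to 3.

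Of the slit diaphragm members, nephrin was barely detected and its scaffold Magi2 was measured well. Nphs1 (ENSMUSG00000006649, chromosome 7, 30458315 to 30487223, + strand) encodes nephrin, the adhesion protein that spans the slit. It had 5, 6 and 8 reads in food-restricted replicates 1 to 3, against 0, 6 and 20 reads in control replicates 1 to 3. The reads were spread over 5 of the 6 libraries, and control replicate 3 alone held more than all food-restricted libraries together. The 0 in control replicate 1 allows up to 3 reads, or 2.77 normalized counts, by counting error alone. In normalized counts the food-restricted libraries had 8.80, 4.74 and 5.25, against 0, 6.42 and 21.4 in controls.

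No difference in Nphs1 was called. Its libraries varied within a diet beyond counting error, with a chi-square per degree of freedom of 7.07, the highest of the 8 genes. The limma log2 fold change was 0.36 with a 95% interval from -1.04 to 1.76 (limma adjusted p = 0.878), while the control mean was the higher of the diets, and the authors' deposited table gives -0.60. The sign of the fitted value turned to -0.044 with a pseudocount of 5 and to -0.87 without control replicate 1. Nphs1os, an antisense gene whose exons overlap Nphs1, had at most 1 read in any library.

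Magi2 (ENSMUSG00000040003, chromosome 5, 19227036 to 20704792, + strand) is a membrane scaffold that binds nephrin at the slit and is also made in neurons. It had 123, 100.4 and 130.5 normalized counts in food-restricted replicates 1 to 3, against 108, 96.4 and 115 in control replicates 1 to 3. The diets overlapped, and replicate 2 was the lowest library of each diet. The log2 fold change was 0.14 (95% interval -0.18 to 0.47, limma adjusted p = 0.752).

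Among the genes of the apical surface and the actin cytoskeleton, Podxl fell. Podxl (ENSMUSG00000025608, chromosome 6, 31519488 to 31563981, − strand) encodes podocalyxin, the charged sialomucin that keeps foot processes apart, and endothelial cells make it too. It had 22.9, 34.0 and 22.9 normalized counts in food-restricted replicates 1 to 3, against 43.3, 66.4 and 51.5 in control replicates 1 to 3. All food-restricted libraries lay below all controls, with replicate 2 the highest of each diet. The means were 26.6 ± 6.39 in food-restricted libraries and 53.7 ± 11.7 in controls (SD, n = 3 each), so the food-restricted level was 49.5% of the control level (log2 fold change -0.99, SE 0.28, 95% interval -1.54 to -0.44, limma adjusted p = 0.0209).

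The Podxl difference rests on few reads and on most of the libraries. It had 13, 43 and 35 reads in food-restricted replicates 1 to 3, against 47, 62 and 48 reads in control replicates 1 to 3. The authors' deposited table gives a log2 fold change of -0.99 with an adjusted p of 0.0892. The limma adjusted p was 0.184 without control replicate 2, 0.0722 without control replicate 3, 0.0565 without food-restricted replicate 1 and 0.133 without food-restricted replicate 3, with log2 fold changes of -0.83 to -1.17 over all left-out libraries. Over every alternative tried, the limma adjusted p of Podxl lay between 0.0192 and 0.184 and that of Foxc2 between 0.000281 and 0.152.

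Synpo (ENSMUSG00000043079, chromosome 18, 60593973 to 60660142, − strand) encodes synaptopodin, an actin-binding protein of foot processes and dendritic spines. It had 35.2, 45.0 and 45.2 normalized counts in food-restricted replicates 1 to 3, against 58.1, 77.1 and 62.2 in control replicates 1 to 3. The diets did not overlap, food-restricted libraries being the lower, but the gene was not called (log2 fold change -0.64, 95% interval -1.11 to -0.17, limma adjusted p = 0.112). Its libraries varied within a diet by about the counting error, with a chi-square per degree of freedom of 1.02. Clic5 (ENSMUSG00000023959, chromosome 17, 44188572 to 44280168, + strand), a chloride channel-like protein that sits with ezrin and podocalyxin at the foot process membrane, had 56.3, 61.6 and 65.6 normalized counts in food-restricted replicates 1 to 3, against 85.8, 91.0 and 65.4 in control replicates 1 to 3. Control replicate 3 fell inside the food-restricted range and the gene was not called (log2 fold change -0.38, 95% interval -0.79 to 0.022, limma adjusted p = 0.361).

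Ptpro (ENSMUSG00000030223, chromosome 6, 137252319 to 137463233, + strand) encodes a receptor tyrosine phosphatase of the apical podocyte membrane. It had 204, 229 and 213 normalized counts in food-restricted replicates 1 to 3, against 188, 178 and 162 in control replicates 1 to 3. Here the food-restricted libraries all lay above the controls, opposite to Podxl and Synpo. The gene was not called (log2 fold change 0.29, 95% interval 0.043 to 0.54, limma adjusted p = 0.204).

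**Figure D3:**
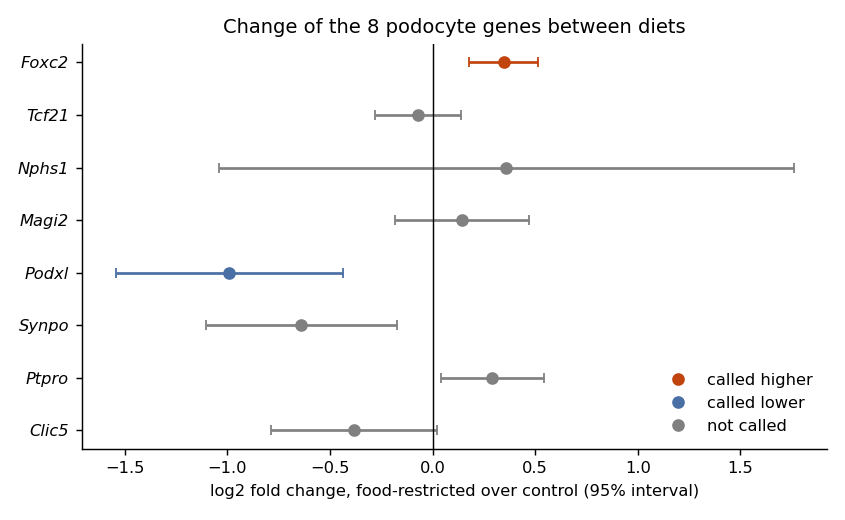
Log2 fold change of each podocyte gene, food-restricted over control, with the 95% interval of the limma fit. Orange-red and blue points were called higher and lower at an adjusted p under 0.05 over all genes, and grey points were not called. Foxc2 lies at 0.35, Podxl at -0.99, and the interval of Nphs1 runs from -1.04 to 1.76.

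Profiles of the called members were compared with those of 9331 genes with a mean normalized count of at least 100. The 9331 exclude Gm, Rik and clone-type symbols. The nearest genes over the 6 libraries were found by the root mean square difference of log2(normalized count + 1), after subtracting each gene's mean. For Podxl they were Hdc (0.138), Iqgap2 (0.188) and Plxna4 (0.196). Hdc had 118, 145 and 97.7 normalized counts in food-restricted replicates 1 to 3, against 188, 245 and 203 in control replicates 1 to 3, so replicate 2 was the highest of each diet as in Podxl. For Foxc2 they were Zer1 (0.043), Tmem8b (0.043) and Pan2 (0.050), each highest in food-restricted replicate 2. All 6 were called in the direction of the member they resemble, and the measure includes the difference between diets.

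A wider list of 77 podocyte genes, which includes the 8, was read from the same fit. Over the list 6 genes rose and 5 fell, with a median log2 fold change of 0.037, beside 2.24% and 2.5% of all tested genes called in each direction and a median of -0.0028. Many of its genes are widely expressed and stood at high levels in these cells. Of the 77 genes, 8 had a mean normalized count under 10, against 8823 of the 25157 tested genes. The list and the background therefore differ in level, and the shares called are not like for like.

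Of 17 slit diaphragm genes 2 rose and none fell by limma. The food-restricted libraries lay wholly above the controls for 3 of the 17 and wholly below them for 1, beside 9.48% and 10.2% of all tested genes. The scaffold Magi1, a paralog of Magi2, rose to 1336 ± 80.7 normalized counts in food-restricted libraries, against 837 ± 55.3 in controls (log2 fold change 0.67, limma adjusted p = 7.92e-12). The atypical cadherin Fat1 rose to 17066 ± 746 in food-restricted libraries, against 15347 ± 402 in controls (0.15, limma adjusted p = 0.000623). Iqgap1 (0.13, limma adjusted p = 0.0533) and the adaptor Cd2ap (0.0033, limma adjusted p = 0.989) were abundant and not called.

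Of 18 genes of the cytoskeleton and apical surface 1 rose and 3 fell, Podxl among them. Srgap1, a GTPase-activating protein, rose to 1783 ± 72.4 normalized counts in food-restricted libraries, against 1338 ± 37.0 in controls (log2 fold change 0.41, limma adjusted p = 2.35e-07). Ezr, the membrane-actin linker ezrin that many epithelia use, fell to 2216 ± 14.9 in food-restricted libraries, against 2557 ± 167 in controls (-0.20, limma adjusted p = 0.00659), a call that ended without control replicate 1 (0.123) and without control replicate 2 (0.0597). Anln, anillin, which dividing cells need for cytokinesis, fell to 663 ± 11.8 in food-restricted libraries, against 832 ± 72.9 in controls (-0.32, limma adjusted p = 0.00275, or 0.0681 without control replicate 3). Myh9 (-0.10, limma adjusted p = 0.135) and Actn4 (-0.12, limma adjusted p = 0.183) were not called.

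Of 12 transcription factors Foxc2 alone was called. For 7 of the 12 every food-restricted library lay above every control, beside 9.48% of all tested genes. None of the 12 had a mean normalized count under 10, so the shares are not like for like. The whole list of 77 had 19 genes wholly above and 11 wholly below, among them 2 and 6 of the 18 cytoskeleton genes. Of the 9 commitment markers read further below, 7 lay wholly above and none below. The median log2 fold change of the 12 transcription factors was 0.14. Wt1, which progenitors and podocytes share, stood at 3188 ± 55.7 normalized counts in food-restricted libraries and 2975 ± 94.5 in controls (0.10, limma adjusted p = 0.251). Foxc1, the paralog of Foxc2, stood at 2636 ± 95.8 and 2634 ± 85.3 in food-restricted and control libraries (0.0012, limma adjusted p = 0.996), and Tcf4 at 6889 ± 207 and 6875 ± 196 (0.0029, limma adjusted p = 0.986).

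Of 16 basement membrane and secreted genes Lamb2 alone was called. This laminin chain of the mature glomerular membrane rose to 1203 ± 70.4 normalized counts in food-restricted libraries, against 1028 ± 23.9 in controls (log2 fold change 0.22, limma adjusted p = 0.0231), but its adjusted p lay between 0.0619 and 0.111 without each of control replicates 1 to 3 and food-restricted replicates 1 and 3. Over every alternative tried, the limma adjusted p lay between 0.0137 and 0.111 for Lamb2, 0.00184 and 0.0681 for Anln, 0.00270 and 0.123 for Ezr, and 0.000384 and 0.0557 for Enpep. Lamc1 (0.058, limma adjusted p = 0.530), Itgb1 (-0.11, limma adjusted p = 0.179) and Agrn (0.084, limma adjusted p = 0.397) were the most abundant of the list and were not called. Of 14 other markers 1 rose and 2 fell. The phosphatase Ptprd rose (0.25, limma adjusted p = 0.00144), while the guidance receptor Robo2 (0.093, limma adjusted p = 0.0536) and the ephrin Efnb1 (-0.014, limma adjusted p = 0.951) were not called. The genes that fell, Dpp4 (-0.72, limma adjusted p = 0.000425) and Enpep (-0.55, limma adjusted p = 0.00291), encode membrane peptidases that podocytes share with the proximal tubule brush border. Enpep lost its call without control replicate 1 (limma adjusted p = 0.0526) and without food-restricted replicate 3 (0.0557).

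**Figure D4:**
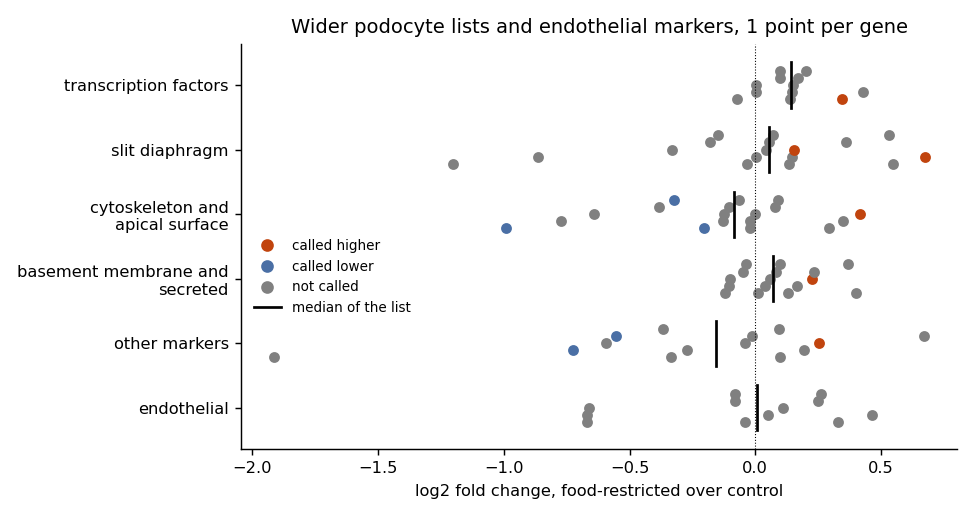
Log2 fold change, food-restricted over control, of each gene of the wider podocyte lists and of the endothelial list, 1 point per gene. Black bars are list medians, and orange-red and blue points were called higher and lower. The transcription factor list has a median of 0.14 and the cytoskeleton list one of -0.084.

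Markers of other cells that make some of these genes were read beside them. The 12 endothelial markers, which matter for Podxl and Clic5, had a summed level of 29.6 to 31.0 CPM (counts scaled by the library total) in food-restricted libraries and 28.2 to 31.8 CPM in controls. None of the 12 was called by limma, 1 of them (Plvap) had an unadjusted p under 0.05, and none was at 0 in a library. The most abundant was Ehd3 (81.5 ± 10.3 and 66.3 ± 20.7 normalized counts in food-restricted and control libraries). Plvap, named after its values were seen, stood at 47.2 ± 9.27 in food-restricted libraries and 75.6 ± 17.1 in controls (-0.66, limma adjusted p = 0.0783).

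The 12 stromal markers, which matter for Tcf21 and Foxc2, summed to 289 to 324 CPM in food-restricted libraries and 243 to 245 CPM in controls, and 4 of them rose, with Col1a1 the most abundant at 1152 ± 91.3 normalized counts in food-restricted libraries and 945 ± 10.7 in controls. The 11 proximal tubule markers, which matter for Dpp4, Enpep and Ezr, summed to 371 to 386 CPM in food-restricted libraries and 605 to 625 CPM in controls, and 9 of them fell, with Lrp2 the most abundant (log2 fold change -0.84). The 9 commitment markers summed to 827 to 896 CPM in food-restricted libraries and 751 to 762 CPM in controls, and 3 rose, while the most abundant, Pax8, was not called (0.071, limma adjusted p = 0.503). Over the 10 progenitor markers the sums were 2617 to 2809 CPM in food-restricted libraries and 2797 to 2852 CPM in controls, and 2 fell. The sum over the 8 podocyte genes themselves was 109 to 133 CPM in food-restricted libraries and 111 to 116 CPM in controls. Most of it came from Foxc2, Tcf21 and Ptpro. Their means were 56.8, 26.1 and 19.2 CPM in food-restricted libraries and 43.3, 26.7 and 15.3 CPM in controls. Differences in the low structural genes, such as Podxl (2.37 and 4.67 CPM), therefore hardly show in the sum. The part of these other cells in the results for the podocyte genes was not tested.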

How the data were processed

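The 8 genes and the lists beside them were chosen with earlier results of these data known. Per the submitters' processing notes, the authors' tools included DESeq2 1.22.1, HTSeq 0.6.0, TopHat2 2.1.1 and cutadapt 1.18, and the build was GRCm38, and per the labels' protocols libraries came from a SMARTer kit for stranded total RNA. Whether reads were counted by strand is not stated in those notes. The authors deposited whole-number counts per gene and library, the same counts divided by a size factor per library (normalized counts, for genes with at least 10 reads in all), and their own log2 fold changes and p-values. A mark for missing values kept these columns from being declared as counts, so the planned fallback was used: limma 3.58.1 in R 4.3.3 with a mean-variance trend on log2(normalized count + 1), diet as the only term, two-sided, Benjamini-Hochberg adjusted over 25157 genes, threshold 0.05. Fold changes are food-restricted over control. RPKM used the total counts per library and exon union lengths of GENCODE vM21 (GRCm38). Fold changes of low genes depend on the pseudocount, and the floor of 3 reads covers counting error only. The fit was checked on simulated counts. Changes were placed there only in genes with higher mean counts than Podxl and Nphs1, so the check does not cover their levels. Named from the wider lists were every called gene and the 3 most abundant per sublist, and from the lists of other cell types the most abundant gene; Six2 was added as the gene of the transgene's promoter, with its values known. Alternatives were other pseudocounts, a CPM filter, other scalings, a replicate block and leaving out each library. Values of some genes on these lists are not reported here.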

Additional observations from a re-analysis of the deposited data

How the results depend on the processing

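The directions and calls of Foxc2 and Podxl were the same with a pseudocount of 0.5 or 5, with genes limited to a CPM of at least 1 in 3 or more libraries, with trimmed-mean or upper-quartile scaling and with the replicate block. Under these 6 settings 1 of the 8 genes was called higher and 1 lower. Leaving out a library gave 0 to 1 of the 8 called higher and 0 to 1 called lower. The wider list then had 4 to 8 higher and 3 to 6 lower. Over all genes 240 to 605 were higher and 324 to 752 lower. These counts over all genes were lowest without food-restricted replicate 3 and highest without food-restricted replicate 1. On the wider list, the 3 lower were found without control replicate 1, control replicate 2 or food-restricted replicate 3, and the 4 higher without control replicate 1 or food-restricted replicate 3. Each such fit also had fewer libraries, and the causes of these shifts were not tested. Nphs1 did not pass the CPM filter and has no value there. It turned to -0.044 with a pseudocount of 5 and ranged from -0.87 to 1.37 over the left-out libraries, and Tcf21 ranged from -0.13 to 0.024. With the replicate block, 452 genes were higher and 528 lower over all genes, against 563 and 630 without it, and no call among the 8 changed. Libraries with the same number did not deviate together (Pearson r across 10060 genes of -0.11, 0.026 and -0.072 for replicates 1 to 3), so the numbers were not taken as pairs. The planned refits with count models (edgeR and DESeq2) were not run. Few reads limit the precision for Nphs1, Podxl and Synpo, and Nphs1 also varied within a diet beyond counting error.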
